A study of Danio rerio with 6 samples.

Results

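The genes of the Wnt pathway described here were chosen by symbol. They are the ligands, the genes that secrete them, their receptors, agonists and inhibitors, and the intracellular carriers of the signal, taken wherever a symbol matched a fixed list of name stems and the gene had 10 or more reads in 3 or more libraries. Of 14781 genes in the count files, 80 symbols matched and 65 were members. The stems also covered lgr4, lgr5, lgr6, rnf43 and apc2, but the count files held no such symbol. These genes were not looked for under other names, so nothing is said of them here. The other 15 were thinly read: 10 were ligands (wnt1, wnt2, wnt2ba, wnt3a, wnt8-2, wnt8a, wnt8b, wnt9a, wnt9b and wnt11), and the rest were fzd4, nkd2a, nkd2b, nkd3l and rspo4. No library held more than 15 reads of any of these 15 genes. Just outside the limit, wnt8b had 4, 10 and 5 reads in the sham libraries and 15, 3 and 6 in the injured libraries, and just inside it fzd8b had 15 to 37 reads per library. Among them, fzd4, nkd2b, wnt8-2 and wnt8a had 0 reads in every library, which allows 3 reads, or 0.0995 to 0.155 CPM (reads of a gene per 1000000 reads in genes), in each.

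RNA was sequenced in bulk from spinal cord of adult zebrafish, a species that regrows a transected cord. There were 3 sham libraries from sham-operated clutchmates, which 1 of the labels calls uninjured, and 3 injured libraries taken at 1 week post-injury (wpi), after the cord was transected. Each sample took in 2 mm of cord on either side of the lesion site or its equivalent, and the number of fish behind a sample was not given. The p-values therefore measure only the spread between these samples, which may be technical in part, and because the tissue was bulk, fewer cells of a type and less RNA per cell cannot be told apart.

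Wnt ligands are lipid-modified secreted proteins that bind a Frizzled receptor together with a co-receptor, either Lrp5 or Lrp6. In the canonical branch this stops a complex of Axin, Apc and Gsk3 from marking β-catenin for destruction, so that β-catenin enters the nucleus and acts with Tcf and Lef proteins on target genes. Other branches run through Frizzled and Dishevelled to cell polarity and movement without β-catenin. In the zebrafish cord the pathway is known for its role in regrowth after injury, in neurons, in fibroblast-like cells and in the ependymo-radial glia (ERGs), the cells that line the central canal.

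The sham libraries held 19310220 to 24161526 reads in genes and the injured libraries 21926842 to 30147448. Sham 1 stood apart from sham 2 and sham 3, and its values often lay on the injured side. Summed marker lists show its position. The microglia list summed to 4287 CPM in sham 1, to 1771 and 1837 CPM in the other sham libraries, and to 8608 to 9409 CPM after injury. Most of this sum was apoeb, at 3412, 1331 and 1442 CPM in sham 1, 2 and 3 and 7485 to 8382 CPM after injury. In mpeg1.1, csf1ra, lgals3bpb and spi1b, sham 1 also lay between the other sham libraries and the injured libraries. The list gene ctssb.1 was instead highest in sham 1, at 103 CPM. The cell cycle list summed to 686 CPM in sham 1, against 191 to 217 CPM in the other sham libraries and 526 to 544 CPM after injury. Oocyte genes set sham 1 apart from both groups, at a sum of 333 CPM against 8.27 and 21.1 CPM in sham 2 and 3 and 9.25 to 16.5 CPM after injury. Fits without sham 1 are therefore given beside those with it, and levels are in CPM of libraries scaled by the trimmed mean of M-values (TMM). Across all 12804 genes tested with edgeR the median log2 fold change (injured minus sham) was -0.03 with all libraries and -0.01 without sham 1.

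All 65 members were tested, and 9 rose and 3 fell at 1 wpi at an adjusted p under 0.05. The genes that rose were the agonists rspo1 and rspo3, the receptors fzd2, fzd3a, fzd6, fzd7a and fzd10, the transcription factor tcf7l2 and the intracellular inhibitor nkd3. The genes that fell were the Dickkopf inhibitors dkk1b, dkk2 and dkk3a. Members that rose were 13.8% of the 65, against 5.81% of all genes tested, and members that fell were 4.62%, against 4.83%. In either direction the shares were 18.5% of members and 10.6% of all genes. At an unadjusted p below 0.05 there were 36 members (55.4%), against 38.2% of all genes, which is the background of such counts by role.

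The groups did not overlap for 39 members. In 31 of these (47.7%) every injured library lay above every sham library, against 22.9% of all genes, and in 8 (12.3%) every injured library lay below, against 21.8%. The median log2 fold change of the members was 0.21, with 45 above 0 and 20 below, and it was 0.24 without sham 1.

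The calls depended on the libraries and on the tool. Without sham 1, edgeR called 30 members higher (46.2%, against 29.3% of all genes) and 14 lower (21.5%, against 28.5%), and these held all 12 members called with 6 libraries. DESeq2 on all 6 libraries called 21 members higher (32.3%) and 5 lower (7.69%), against 14.7% of all genes in each direction, and again these held all 12. Without any 1 of the other 5 libraries edgeR called 0 of the 12804 genes and so 0 members, with 20 to 25 members (30.8% to 38.5%) at an unadjusted p below 0.05, against 23.6% to 26.7% of all genes. With each of those 5 libraries omitted in turn, DESeq2 found 10 to 15 members higher and 3 lower, against 6.66% to 8.32% and 6.18% to 7.18% of all genes, among them all 12 except rspo3 without injured 1 or injured 2.

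**Figure D1:**
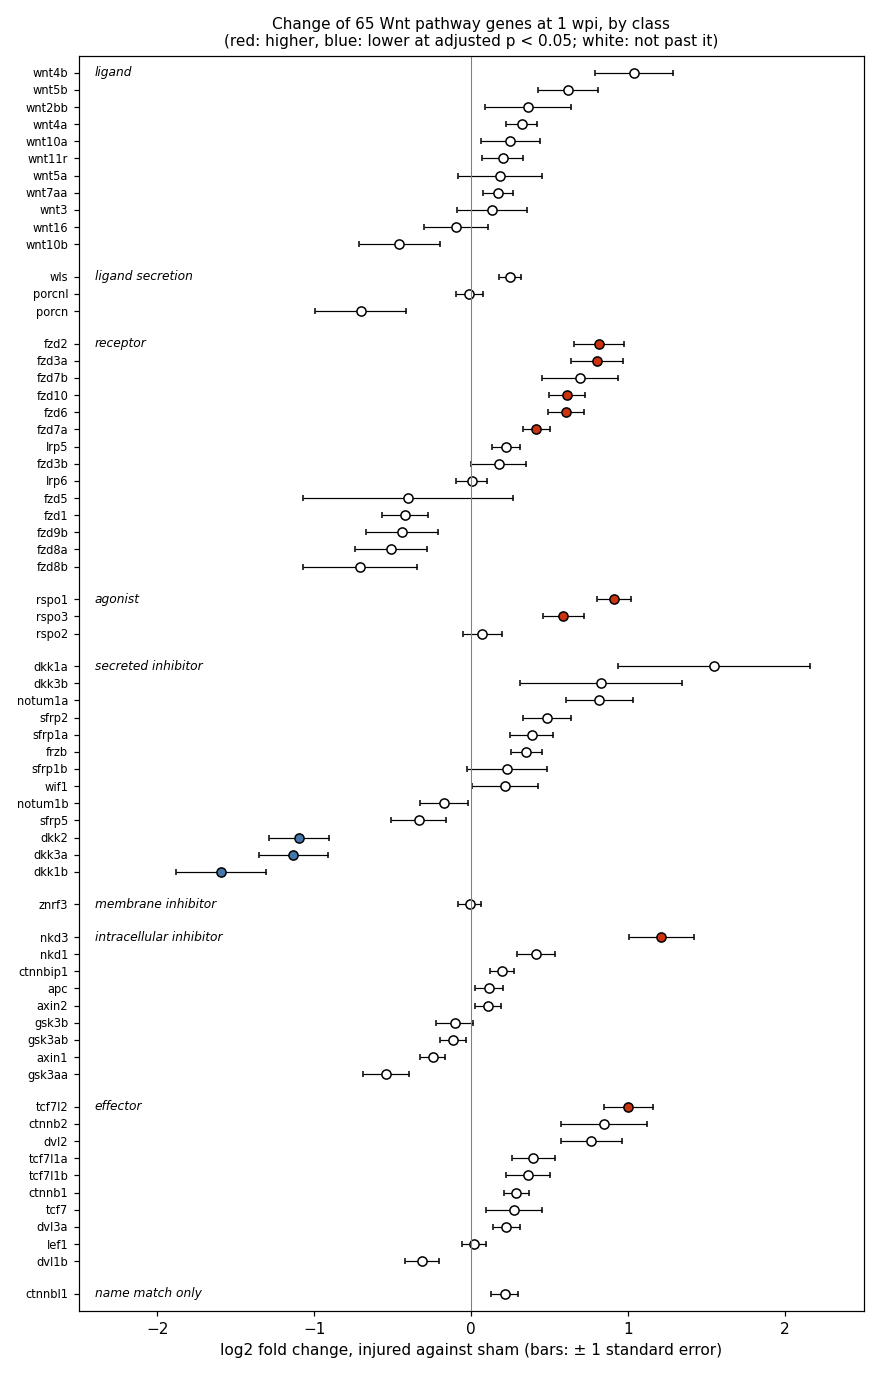
Log2 fold change (injured minus sham) of the 65 Wnt genes by role in the pathway, as points with bars of ± 1 standard error from edgeR, where red marks genes called higher, blue genes called lower and white the rest. The calls sat among the agonists, the receptors and the secreted inhibitors, with 1 intracellular inhibitor and 1 effector. The widest bar was that of fzd5.

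Of the 11 ligands measured, 0 passed the test with edgeR. An unadjusted p below 0.05 was reached by 3, against 38.2% of all genes. DESeq2 with all libraries placed 3 past its threshold, all higher, against 14.7% of all genes in each direction. Without sham 1, edgeR called 3 higher and 1 lower, against 29.3% and 28.5% of all genes. The log2 fold changes of the ligands ran from -0.46 to 1.04, with a median of 0.20. In 4 of them the injured libraries lay above all sham libraries, against 22.9% of all genes. CPM is not scaled to gene length, so levels are compared between groups and not between genes.

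The ligand with the largest difference was wnt4b, known in zebrafish embryos from the floor plate. Its level was 688, 404 and 367 CPM in sham 1, 2 and 3 and 971, 1043 and 980 CPM in injured 1, 2 and 3. Every injured library was above every sham library, and sham 1 was the highest of the sham libraries. The means were 486 ± 176 CPM (SD, n = 3) and 998 ± 39.5 CPM (SD, n = 3). The log2 fold change was 1.04 (95% interval 0.43 to 1.65, adjusted p = 0.0509), just outside the threshold. It was 1.37 without sham 1 (adjusted p = 8.55e-05), and DESeq2 with all libraries gave an adjusted p of 0.000604.

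Its close relative wnt4a measured 23.9, 27.7 and 28.8 CPM in sham and 33.2, 32.1 and 35.1 CPM in injured libraries. The groups did not overlap, but the log2 fold change of 0.32 had an adjusted p of 0.0779 (0.24 and 0.0183 without sham 1). For wnt5b, a ligand best known for signals that bypass β-catenin, the levels were 4.50, 5.29 and 4.08 CPM in sham and 6.21, 8.51 and 6.55 CPM in injured libraries. Those groups were also apart, with a log2 fold change of 0.62 (adjusted p = 0.0752). Without sham 1 it was 0.60 (adjusted p = 0.0435). The wnt5b gene overlaps fbxl14b in a RefSeq table of a later assembly. Reads over both genes may have been left out as ambiguous or counted for either.

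The lowest log2 fold change among ligands was that of wnt10b, at 3.95, 7.29 and 5.04 CPM in sham and 4.52, 3.68 and 3.64 CPM in injured libraries. Sham 1 lay inside the injured range, and the value of -0.46 had an adjusted p of 0.237. Without sham 1 it was -0.64 and called lower (adjusted p = 0.0391). The wnt10b gene likewise overlaps wnt1. The ligands wnt2bb, wnt3, wnt5a, wnt7aa, wnt10a, wnt11r and wnt16 had log2 fold changes from -0.10 to 0.36, none past the threshold with or without sham 1. In the same table wnt2bb overlaps mov10b.1 and wnt3 overlaps nsfb.

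Ligand secretion was measured through 3 genes, of which 0 passed the test with edgeR, while 1 had an unadjusted p below 0.05 and the same number was called higher by DESeq2. The carrier wls, which brings Wnt proteins to the cell surface, measured 143, 158 and 146 CPM in sham and 176, 175 and 180 CPM in injured libraries. The injured values were close together and all above the sham values. Its log2 fold change was 0.25 (SE 0.0690, adjusted p = 0.0632), and DESeq2 gave an adjusted p of 0.00298. Without sham 1 the edgeR value was 0.22 (adjusted p = 0.0130).

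The acyltransferase porcn adds the lipid that Wnt ligands need for secretion and receptor binding. It measured 5.29, 11.2 and 10.5 CPM in sham and 5.43, 5.24 and 5.87 CPM in injured libraries, so sham 1 sat with the injured libraries and the other sham libraries sat near 11. The log2 fold change was -0.71 (adjusted p = 0.132) with sham 1 and -0.98 (adjusted p = 0.000644) without it. Its relative porcnl differed by -0.01 (95% interval -0.22 to 0.19).

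Receptors made up 14 members, and 5 of them rose while 0 fell, against 5.81% and 4.83% of all genes. All 5 were Frizzleds. The injured libraries lay above the sham libraries in 7 of the 14 and below in 1, against 22.9% and 21.8% of all genes. At an unadjusted p under 0.05 there were 8 receptors, against 38.2% of all genes. DESeq2 called 6 higher and 0 lower, against 14.7% of all genes in each direction. Without sham 1, edgeR called 7 higher and 4 lower, against 29.3% and 28.5% of all genes. Values in that fit were 0.99 for fzd2, 0.98 for fzd3a, 0.70 for fzd6, 0.40 for fzd7a and 0.71 for fzd10.

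The largest of these differences was that of fzd2, a receptor tied in zebrafish embryos to Wnt5 signals. It measured 71.9, 55.97 and 48.0 CPM in sham and 111, 104 and 93.8 CPM in injured libraries. The lowest injured library was still above the highest sham library, which was sham 1. The mean went from 58.6 ± 12.1 to 103 ± 8.69 CPM (SD, n = 3 each), a log2 fold change of 0.81 (SE 0.159, adjusted p = 0.0402).

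The Frizzleds fzd3a and fzd6 belong to a pair best known, from mice, for planar cell polarity and axon guidance. Levels of fzd3a were 16.6, 11.3 and 12.3 CPM in sham and 21.8, 23.2 and 25.1 CPM in injured libraries. The groups were apart by over 5 CPM, and the log2 fold change was 0.80 (SE 0.166, adjusted p = 0.0425). The fzd3a gene overlaps fbxo16 in the RefSeq table, so reads over both may have been left out as ambiguous or counted for either. Its duplicate fzd3b measured 20.7, 12.96 and 17.6 CPM in sham and 19.0, 19.5 and 19.3 CPM in injured libraries. Here the injured values fell within the sham range, with a log2 fold change of 0.17 (95% interval -0.25 to 0.60).

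For fzd6 the sham libraries measured 30.6, 25.6 and 25.5 CPM and the injured libraries 38.4, 40.6 and 45.2 CPM. These were apart, with a log2 fold change of 0.60 (SE 0.113, adjusted p = 0.0390). The receptor fzd10, known from the dorsal neural tube of vertebrate embryos, was close to it in size. It measured 48.3, 41.6 and 37.7 CPM in sham and 60.8, 62.8 and 71.2 CPM in injured libraries, again apart, with a log2 fold change of 0.61 (SE 0.116, adjusted p = 0.0393).

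The smallest difference among the Frizzleds that rose was that of fzd7a, whose family is known for cell movement in the gastrula. It measured 27.7, 29.3 and 28.0 CPM in sham and 40.9, 35.2 and 37.3 CPM in injured libraries. Sham 1 was here the lowest of the sham libraries, and the log2 fold change was 0.41 (SE 0.0877, adjusted p = 0.0433). Its duplicate fzd7b measured 21.6, 14.6 and 11.1 CPM in sham and 27.4, 24.1 and 24.8 CPM in injured libraries. The groups did not overlap, but the sham libraries spread widely, and the log2 fold change of 0.69 had an adjusted p of 0.0961 (0.99 and 0.00148 without sham 1).

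The other Frizzleds went the other way in value without passing the test. They were fzd1, fzd5, fzd8a, fzd8b and fzd9b, named here to account for the class, with log2 fold changes from -0.71 to -0.40. In fzd1 the injured libraries lay below all sham libraries. Without sham 1, edgeR called fzd1, fzd8a, fzd8b and fzd9b lower, in a fit that called 28.5% of all genes lower. The value of fzd5 turned to 0.68 there with no call. The fzd5 values were 3.66 CPM in sham 1, 0.557 and 1.08 CPM in the other sham libraries and 1.16 to 1.60 CPM after injury. The co-receptors lrp5 and lrp6 had log2 fold changes of 0.22 (adjusted p = 0.125, and 0.25 and 0.0334 without sham 1) and 0.00 (95% interval -0.23 to 0.24).

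The R-spondins are secreted agonists that keep Frizzleds at the surface by removing the ligase Znrf3 and its relative. Of the 3 measured, 2 rose, against 5.81% of all genes, and the other did not pass the test. The smallest adjusted p among all members belonged to rspo1, at 6.87, 6.87 and 6.37 CPM in sham and 12.6, 13.3 and 11.97 CPM in injured libraries. Sham 1 lay with the other sham libraries, and every injured library was above 11 CPM. The mean went from 6.70 ± 0.290 to 12.6 ± 0.666 CPM (SD, n = 3 each). The difference was 1.88-fold, a log2 fold change of 0.91 (95% interval 0.65 to 1.18, adjusted p = 0.0281), and 0.93 without sham 1.

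A smaller difference was seen in rspo3, at 5.68, 7.25 and 6.62 CPM in sham and 9.71, 10.1 and 9.60 CPM in injured libraries. Sham 1 was the lowest of all 6. The log2 fold change was 0.59 (SE 0.133, adjusted p = 0.0466) and 0.50 (adjusted p = 0.00596) without sham 1. By contrast rspo2 measured 51.4, 63.1 and 70.5 CPM in sham and 65.7, 68.2 and 60.5 CPM in injured libraries. These groups overlapped, and the interval of the difference ran from -0.24 to 0.38. The ligase znrf3 itself, which removes Frizzleds from the surface, lay between 24.3 and 25.1 CPM in all 6 libraries, with a log2 fold change of -0.01 (95% interval -0.19 to 0.17). The znrf3 gene overlaps coq5 in the RefSeq table.

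**Figure D2:**
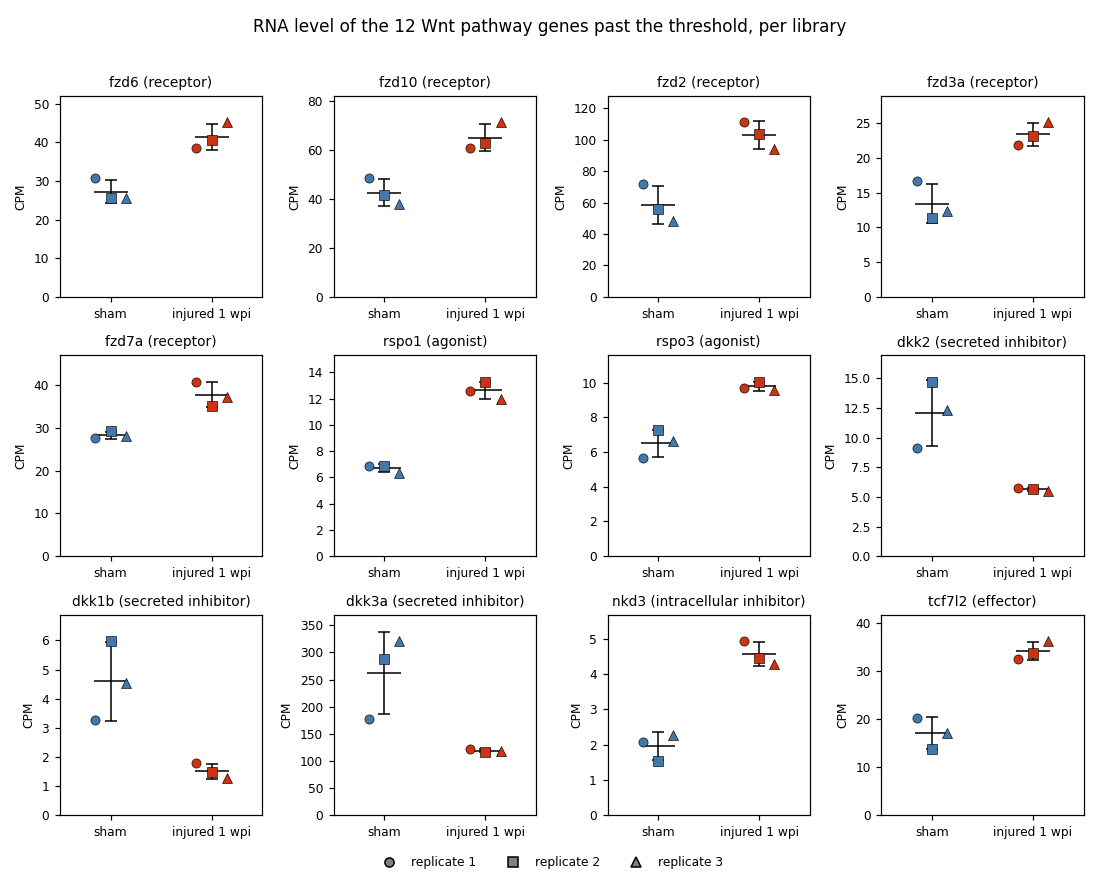
CPM per library of the 12 Wnt genes called at 1 wpi, sham in blue and injured in red, with a symbol for each replicate number (circles are replicate 1), lines at the group means and bars of ± 1 SD. The injured libraries sat above all sham libraries in the 9 genes that rose and below them in the 3 that fell, and sham 1 was the sham library nearest the injured values in 8 of the 12.

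Secreted inhibitors formed a class of 13, of which 3 fell and 0 rose, against 4.83% and 5.81% of all genes. In 5 the injured libraries lay above all sham libraries and in 4 below, against 22.9% and 21.8% of all genes. The log2 fold changes ran from -1.59 to 1.54, with a median of 0.23. At an unadjusted p under 0.05 there were 8, against 38.2% of all genes. DESeq2 called 3 higher and 3 lower, against 14.7% of all genes in each direction. edgeR without sham 1 called 6 higher and 3 lower, against 29.3% and 28.5% of all genes.

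All 3 that fell were Dickkopfs. Proteins of the Dkk1 and Dkk2 kind bind Lrp5 and Lrp6 and keep them from Wnt. The values of dkk1b were 3.26, 5.99 and 4.54 CPM in sham and 1.79, 1.49 and 1.27 CPM in injured libraries. Every injured library was below 2 CPM and every sham library above 3. The mean fell from 4.60 ± 1.37 to 1.52 ± 0.258 CPM (SD, n = 3 each), 3.02-fold lower, with a log2 fold change of -1.59 (95% interval -2.29 to -0.90, adjusted p = 0.0359). Without sham 1 it was -1.79 (adjusted p = 0.00116).

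For dkk2 the sham libraries measured 9.14, 14.7 and 12.4 CPM and the injured libraries 5.75, 5.69 and 5.51 CPM. The injured values were nearly equal, and sham 1 was the lowest of the sham libraries. Its log2 fold change was -1.10 (SE 0.192, adjusted p = 0.0352) and -1.26 (adjusted p = 0.000323) without sham 1. The more distant family member dkk3a, which is not known as an Lrp6 antagonist of the same kind, measured 177, 288 and 322 CPM in sham and 122, 117 and 119 CPM in injured libraries. Sham 1 lay well below the other sham libraries but above the injured ones. Its log2 fold change was -1.13 (SE 0.220, adjusted p = 0.0402), and -1.35 without sham 1 (adjusted p = 6.95e-05).

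The duplicates of 2 of these genes did not share their direction. Levels of dkk1a were 4.05, 1.02 and 0.832 CPM in sham and 5.47, 6.28 and 5.42 CPM in injured libraries. The injured libraries were all higher, but sham 1 lay near them, and the log2 fold change of 1.54 had an interval from 0.06 to 3.03 and an adjusted p of 0.122. Without sham 1 it was 2.62 (adjusted p = 0.000185). Levels of dkk3b were 26.2, 7.01 and 8.37 CPM in sham and 29.2, 23.9 and 20.6 CPM in injured libraries. Sham 1 was above 2 of the injured libraries, so the groups overlapped, with a log2 fold change of 0.83 (adjusted p = 0.277) with sham 1 and 1.67 (adjusted p = 0.000629) without it.

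Because duplicates are read in the same library, their ratio does not depend on how libraries were scaled. The log2 ratio of dkk1a to dkk1b was 0.31 in sham 1, -2.55 and -2.446 in sham 2 and 3, and 1.61, 2.08 and 2.09 in the injured libraries. It was higher after injury by 3.49, and by 4.43 without sham 1. The size of this ratio rested on few reads, with 22 and 20 of dkk1a in sham 2 and 3. The injured libraries held 51, 40 and 28 reads of dkk1b. The log2 ratio of dkk3b to dkk3a was -2.75, -5.36 and -5.26 in sham and -2.07, -2.28 and -2.54 in injured libraries, a difference of 2.16 (3.02 without sham 1). In both pairs every injured library was above every sham library, and sham 1 lay closest to the injured values.

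In all, 14 pairs of related members were compared in this way, and the groups did not overlap in 6. Besides the Dickkopfs these were fzd3a to fzd3b, at -0.31, -0.20 and -0.51 in sham and 0.20, 0.25 and 0.38 in injured libraries, and notum1a to notum1b, which differed by 0.99 and of which notum1b overlaps another counted gene. The others were axin2 to axin1 (0.35) and gsk3ab to gsk3aa (0.41). For single genes the groups did not overlap in 22.9% (higher) and 21.8% (lower) of all genes. No such share was computed for ratios of other gene pairs. With 3 libraries against 3 the two-sided exact permutation test cannot go below p = 0.1, which adjusted over the 14 pairs was 0.233. The log2 ratios of ctnnb2 to ctnnb1, wnt4b to wnt4a and fzd7a to fzd7b differed by 0.63, 0.77 and -0.33, with overlap.

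**Figure D3:**
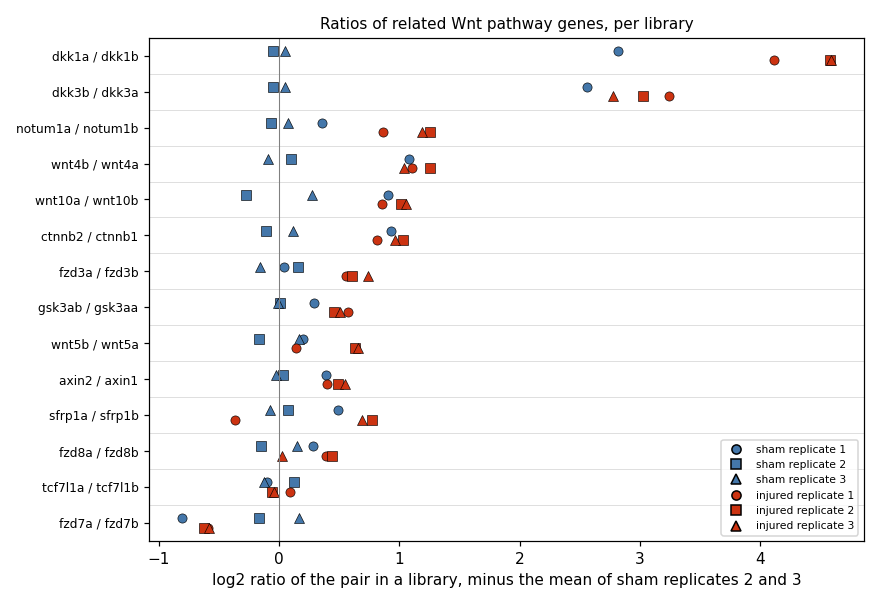
Log2 ratio of 14 pairs of related Wnt genes in each of the 6 libraries, as the difference from the mean of sham 2 and 3, with sham in blue, injured in red and circles for replicate 1. The Dickkopf pairs had the largest differences between the groups, 3.49 for dkk1a to dkk1b and 2.16 for dkk3b to dkk3a, with sham 1 nearest the injured libraries in both.

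The remaining secreted inhibitors bind or modify Wnt itself. The deacylase notum1a, which strips the lipid from Wnt, measured 2.91, 2.18 and 2.66 CPM in sham and 3.65, 5.13 and 4.92 CPM in injured libraries. The groups did not overlap, and the log2 fold change of 0.82 (SE 0.214) had an adjusted p of 0.0585 (0.91 and 0.0140 without sham 1). Its relative notum1b, a gene that overlaps tmc6b in the RefSeq table, differed by -0.17. The Frizzled-related proteins frzb, sfrp1a, sfrp1b, sfrp2 and sfrp5 and the Wnt binder wif1 had log2 fold changes from -0.34 to 0.48. With all libraries none passed the threshold with edgeR, while DESeq2 called frzb and sfrp2 higher (adjusted p = 0.0182 and 0.0277). In frzb, sfrp1a and sfrp2 the injured libraries were all higher. Without sham 1, edgeR called these 3 higher, in a fit that called 29.3% of all genes higher. The mean of sfrp1b rested on injured 1, at 28.8 CPM against 17.0 and 15.9 CPM in the other injured libraries, and its log2 fold change of 0.23 was -0.09 without that library.

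Intracellular inhibitors were 9, of which 1 rose and 0 fell, against 5.81% and 4.83% of all genes. An unadjusted p under 0.05 was found for 5, against 38.2% of all genes. DESeq2 called 2 in each direction, against 14.7% of all genes in each. edgeR without sham 1 called 3 higher and 4 lower, against 29.3% and 28.5% of all genes. The gene that rose with all libraries was nkd3, of the Naked cuticle family, which binds Dishevelled. It measured 2.07, 1.53 and 2.29 CPM in sham and 4.94, 4.46 and 4.28 CPM in injured libraries. The groups were apart by nearly 2 CPM, with sham 1 between the other sham libraries. Its log2 fold change was 1.21 (SE 0.209, adjusted p = 0.0346), or 2.32-fold, and 1.25 without sham 1. Its relative nkd1, a gene that Wnt signals often switch on, measured 8.50, 8.45 and 9.74 CPM in sham and 10.8, 12.04 and 12.7 CPM in injured libraries, a log2 fold change of 0.41 (adjusted p = 0.0715) without overlap. Leaving out sham 1 gave 0.38 (adjusted p = 0.0334). The nkd1 gene overlaps brd7 in the RefSeq table.

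In the complex that destroys β-catenin, no gene passed the edgeR test with all libraries, while DESeq2 called gsk3aa and axin1 lower (adjusted p = 0.00948 and 0.0419). The kinase gsk3aa measured 48.7, 67.3 and 70.8 CPM in sham and 41.3, 44.0 and 43.0 CPM in injured libraries. The injured libraries were all lower, and the log2 fold change was -0.54 (adjusted p = 0.0613). Without sham 1 it was -0.69 (adjusted p = 0.000232). The scaffold axin1 measured 82.5, 96.4 and 97.5 CPM in sham and 78.3, 77.0 and 77.7 CPM in injured libraries, also without overlap, a log2 fold change of -0.25 (adjusted p = 0.0872). Leaving out sham 1 gave -0.32 (adjusted p = 0.00118).

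The paralogue axin2 is switched on by canonical signalling in many tissues and is widely used to read it. It measured 42.1, 38.3 and 37.2 CPM in sham and 40.2, 42.0 and 44.3 CPM in injured libraries. The groups overlapped, and the log2 fold change was 0.11 with an interval from -0.10 to 0.31. The genes apc, gsk3ab, gsk3b and ctnnbip1 differed by -0.12 to 0.20, none past the threshold with all libraries. Without sham 1, gsk3ab and gsk3b were called lower at -0.18 and -0.22 (adjusted p = 0.0139 and 0.0129), where they had been -0.12 and -0.11 with it. The β-catenin blocker ctnnbip1 was called higher without sham 1, at 0.25 (adjusted p = 0.0113) against 0.20 with it.

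Effectors were 10, of which 1 rose and 0 fell, against 5.81% and 4.83% of all genes. The injured libraries were all higher in 7 and all lower in 1, against 22.9% and 21.8% of all genes. An unadjusted p below 0.05 was found for 8, against 38.2% of all genes. DESeq2 called 4 higher and 0 lower, against 14.7% of all genes in each direction. edgeR without sham 1 called 7 higher and 1 lower, against 29.3% and 28.5% of all genes. The gene that rose with all libraries was tcf7l2, a transcription factor that binds DNA and takes up β-catenin. It is known in mice from oligodendrocyte maturation as well. It measured 20.4, 13.8 and 17.1 CPM in sham and 32.6, 33.8 and 36.3 CPM in injured libraries. The mean went from 17.1 ± 3.28 to 34.2 ± 1.92 CPM (SD, n = 3 each), 2.00-fold. The log2 fold change was 1.00 (95% interval 0.63 to 1.38, adjusted p = 0.0312), and 1.14 without sham 1.

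Other transcription factors of the family differed less. The level of lef1 lay between 18.7 and 19.5 CPM in all 6 libraries, with a log2 fold change of 0.02 (95% interval -0.17 to 0.21). The repressors tcf7l1a and tcf7l1b differed by 0.40 and 0.36 (adjusted p = 0.0962 and 0.115) with no overlap, and tcf7, which overlaps ddx46 in the RefSeq table, by 0.27 with overlap. Without sham 1, tcf7l1a and tcf7l1b were both called higher at 0.52 (adjusted p = 0.00728 and 0.000667).

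The duplicates of β-catenin both lay higher in every injured library. For ctnnb1 the sham libraries measured 544, 557 and 522 CPM and the injured libraries 667, 655 and 659 CPM. The groups were tight and apart, with a log2 fold change of 0.29 (SE 0.0807, adjusted p = 0.0648), and DESeq2 gave an adjusted p of 4.89e-06. Without sham 1 the edgeR value was also 0.29 (adjusted p = 0.00439). For ctnnb2 they measured 375, 187 and 205 CPM and 424, 485 and 467 CPM. Sham 1 was the highest sham library by far, and the log2 fold change was 0.84 (adjusted p = 0.0843) with it and 1.23 (adjusted p = 0.000144) without it.

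Dishevelled relays the signal from Frizzled to every branch of the pathway. The levels of dvl2 were 24.8, 16.8 and 15.2 CPM in sham and 30.4, 32.3 and 33.8 CPM in injured libraries, with a log2 fold change of 0.77 (SE 0.194, adjusted p = 0.0544) and no overlap. Without sham 1 it was 1.01 (adjusted p = 0.000235). Of the other Dishevelleds, dvl3a differed by 0.22 and dvl1b by -0.31, each without overlap and without a call. Without sham 1, edgeR called dvl3a higher at 0.30 and dvl1b lower at -0.38. The member ctnnbl1 matched the rule by name only, since the β-catenin-like protein is known from splicing and not from Wnt signalling, and differed by 0.21 (adjusted p = 0.125, and 0.28 and 0.00783 without sham 1).

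**Figure D4:**
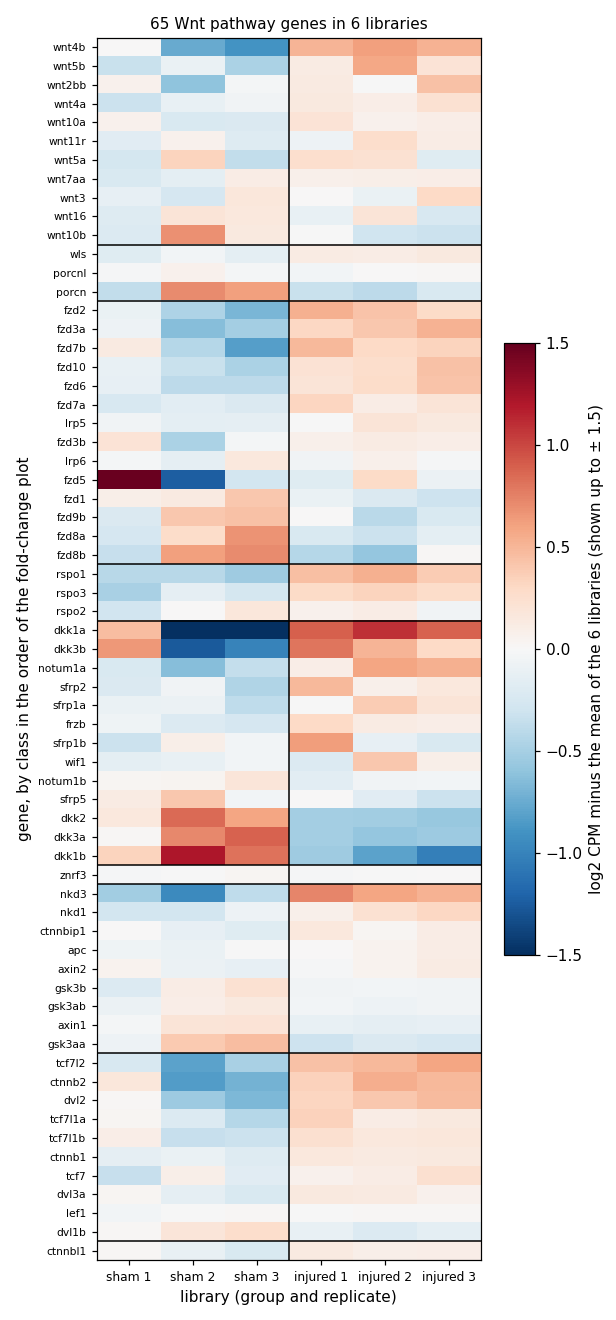
Level of each of the 65 Wnt genes in each library, as log2 CPM minus that gene's mean over the 6 libraries (red above it, blue below, colours capped at 1.5 either way), with genes ordered by role. Within many rows the sham 1 cell lay between those of the other sham libraries and the injured libraries.

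The position of sham 1 was measured for each gene on a scale where 0 is the mean of sham 2 and 3 and 1 is the injured mean. Over the 12 members called with all libraries it ran from -0.44 to 0.69 with a median of 0.33. Over the 44 members called without sham 1 it ran from -0.84 to 1.62 with a median of 0.54. A call with all libraries was harder to reach where sham 1 lay near the injured mean, so the 12 were selected toward lower values.

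Beyond the members, 4 further lists of pathway genes were read, beside all genes tested, of which 5.81% rose and 4.83% fell. Only part of each list was in the count files. The counts were 13 of 22 polarity genes, 21 of 29 canonical co-factors, 14 of 24 further modulators and 17 of 20 reported targets. Of 13 genes of planar cell polarity and the other β-catenin-independent branches, 3 rose, 0 fell and the other 10 did not pass the test, with a median log2 fold change of 0.22. The core polarity gene vangl2 measured 59.3, 39.3 and 37.7 CPM in sham and 77.9, 78.5 and 84.3 CPM in injured libraries, a log2 fold change of 0.82 (SE 0.183, adjusted p = 0.0461). The atypical cadherin celsr2, another core polarity gene, measured 47.9, 41.2 and 41.9 CPM in sham and 63.0, 68.6 and 73.1 CPM in injured libraries, a log2 fold change of 0.64 (adjusted p = 0.0301). The small GTPase rhoab measured 121, 90.0 and 94.98 CPM and 156, 153 and 154 CPM, a log2 fold change of 0.59 (adjusted p = 0.0425). In all 3 the groups were apart.

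Of 20 co-factors of the canonical branch, 0 rose and 1 fell, with a median of -0.07. It was fbxw11b, an F-box protein of the ligase that takes up marked β-catenin, which fell by 0.30 on the log2 scale from 113 ± 4.53 to 92.0 ± 2.21 CPM (SD, n = 3 each, adjusted p = 0.0427). Of 12 further modulators, 0 passed the test.

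Of 16 genes reported elsewhere as Wnt targets, 9 of which are also members, 1 rose and 1 fell, with a median of 0.28. The transcription factor sp8a rose, from 9.53, 10.1 and 9.41 CPM in sham to 16.8, 16.1 and 17.3 CPM in injured libraries. Sham 1 was between the other sham libraries, and the log2 fold change was 0.79 (SE 0.0934, adjusted p = 0.0281). The target that fell was dkk1b, described above. Without sham 1, edgeR still called vangl2, celsr2, rhoab, fbxw11b and sp8a, with adjusted p from 0.000103 to 0.00283. That fit called 29.3% of all genes higher and 28.5% lower.

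Marker genes of several cell types moved between the same libraries. Across all genes, 5.81% rose and 4.83% fell. For the ERG list the sums were 15933, 20947 and 18369 CPM in sham 1, 2 and 3 and 22573 to 23470 CPM after injury. Sham 1 was here the sham library farthest from the injured libraries. Of the 10 genes of this list sox2, foxj1a and vim rose, and the other 7 did not pass the test. Among those 7, gfap, fabp7a, slc1a2b, glula and s100b lay at 0.21 to 0.34, while her4.3 and her4.2 lay at -0.54 and -0.12. The list for mature neurons summed to 16187 CPM in sham 1, to 26077 and 29528 CPM in the other sham libraries and to 11560 to 12090 CPM after injury. Of the 9 genes of this list nefmb, neflb and snap25a fell, and the other 6 did not pass the test. Among those 6, nefma, snap25b, syt1a, eno2 and gad1b lay at -0.81 to -0.17 and slc17a6b at 0.18. Of 5 endothelial genes pecam1 rose, kdrl and sox7 fell, and the other 2 did not pass the test. For oligodendrocytes the sums were 7836 to 11460 CPM in sham and 8411 to 8784 CPM after injury, but the genes of this list differed. Of its 6 genes plp1a rose, with a log2 fold change of 0.68 (adjusted p = 0.0281). The other 5 did not pass the test. Among them mbpb and plp1b lay at -0.38 and -0.33, and mpz, sox10 and olig2 at 0.10, 0.17 and 0.38. The list for fibroblasts and matrix summed to 4719 CPM in sham 1, to 1302 and 1592 CPM in sham 2 and 3 and to 4726 to 6464 CPM after injury, with pdgfrb at 0 reads. Skeletal muscle genes, from tissue outside the cord, summed to 14991, 6512 and 4886 CPM in sham 1, 2 and 3. In injured 1, 2 and 3 the sums were 29549, 9202 and 12032 CPM. Sham 1 and injured 1 were thus the highest of their groups, and 0 of 9 genes passed the test. In mylpfb alone the groups were apart, with the injured libraries lower (log2 fold change -0.42). The part of these cell types in the differences of the Wnt genes was not tested.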

How the data were processed

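Raw counts per gene symbol were deposited, from single-end 50 bp reads processed by the authors with TopHat2 on danRer10, SAMtools 1.3.1 and HTSeq 0.6.0. Low-quality alignments had been removed, so near-identical duplicates may be undercounted. The strand setting and annotation were not given in the sources used here. Reads outside genes (41.2% to 51.3% of all rows) and ambiguous reads (0.509% to 0.611%) were left out. The share outside genes was 43.8% in sham 1, 50.9% and 51.3% in sham 2 and 3, and 41.2% to 42.1% in the injured libraries.

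Genes were filtered with filterByExpr (minimum count 10, minimum total 15), scaled by TMM and fitted with edgeR 4.0.16 (quasi-likelihood, 1 term for injury) in R 4.3.3. Adjusted p-values are Benjamini-Hochberg values over the 12804 genes tested (threshold 0.05). CPM values are TMM-scaled counts, given per library. DESeq2 1.42.0, limma 3.58.1, other scalings and filters, a replicate block and leaving out each library were alternatives. No pair of libraries in a group agreed within sampling noise (chi-square divided by its degrees of freedom was 11.6 to 163). Sham 1 gave 126 and 163 against sham 2 and sham 3, which gave 16.8 between them. Injured 1 gave 77.1 and 52.6 against injured 2 and injured 3, which gave 11.6 between them.

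The members and gene lists were chosen with earlier results of these data known. Named were every called member, up to 4 per class by adjusted p, duplicates of called members, 6 genes of general interest (ctnnb1, axin2, lef1, nkd1, porcn and wls) and called genes of the other lists. Further members were named to account for each class, after their values were seen. Roles were assigned by hand. Members were looked up by name in RefSeq (GRCz12tu), a later assembly than danRer10, and overlapping genes were found from its coordinates.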

Additional observations from a re-analysis of the deposited data

How the results depend on the processing

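All 12 called members kept their sign under every alternative run. Their groups did not overlap, so a change of sign was hardly possible. edgeR with RLE scaling, upper-quartile scaling or scaling without genes of other tissues called 9 higher and 3 lower, as in the fit reported. Of all genes these fits called 5.36% to 5.88% higher and 4.77% to 5.47% lower. Without a filter edgeR called 8 and 3 (rspo3 was lost), against 4.85% and 3.39% of all genes. With 10 counts in every library it called 11 and 3 (dvl2 and wnt4b were gained), against 7.21% and 6.18%. DESeq2 called 21 and 5, against 14.7% of all genes in each direction. With limma-voom the counts were 30 and 15, against 29.2% and 29.7% of all genes. Against a fold of 1.2, edgeR called 0 members and 0 of all genes. There 21 members (32.3%) had an unadjusted p under 0.05, against 23.2% of all genes. Without sham 1, edgeR called 30 higher and 14 lower, against 29.3% and 28.5% of all genes. Without any 1 of the other libraries it called 0 members and 0 of all genes. With 1 library left out, DESeq2 called 10 to 29 higher and 3 to 13 lower, against 6.66% to 28.3% and 6.18% to 26.6% of all genes. With the replicate number as a block, edgeR called 0 members and 0 of all genes (smallest adjusted p of a member 0.0847). There 29 members (44.6%) had an unadjusted p under 0.05, against 33.8% of all genes. In their deviations from the group means, same-numbered samples correlated at -0.16, -0.03 and 0.07, and not every sample correlated best with its own number. With 3 libraries a group such correlations cannot decide whether same-numbered samples were paired. Over all 65 members, 21 changes of sign were seen, in fzd5, lrp6, porcnl, rspo2, sfrp1b and znrf3, and 0 of them had a call in either fit. A promoter motif search was not run, since no promoter sequences were used here. Depth limits the genes left out and members of few reads such as fzd8b, dkk1a and dkk1b, and 3 libraries a group limit the rest.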
